A study of Mus musculus with 4 samples.

Results

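The clusters described here are the places inside long 3′UTRs where eCLIP-seq reads of mouse testes piled up in the IGF2BP3 immunoprecipitate (IP). A cluster was taken when its centre lay, on the strand of the mRNA, in a 3′UTR of at least 300 spliced bases, more than 100 bases after the stop codon and more than 150 bases before the end of the transcript. This stretch is called the interior below. These limits use position alone, so the enrichment of a cluster played no part in its choice. They took 25,652 of the 337,234 clusters of replicate 1 (7.61%) and 21,033 of the 216,354 clusters of replicate 2 (9.72%). The interiors of 15,404 protein-coding genes add up to 22.8 megabases of spliced sequence.

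The 3′UTR follows the coding sequence of an mRNA and holds most of the sites through which RNA-binding proteins and microRNAs set its stability, its localisation and its use by ribosomes. IGF2BP3 belongs to a family of cytoplasmic proteins with RRM and KH domains that bind mRNAs, and members of this family have been linked to CA-rich sequences and to N6-methyladenosine (m6A). During spermiogenesis transcription ceases while haploid cells are still being remodelled, so many testicular mRNAs are made early and stored, and proteins on their 3′UTRs are part of that delay.

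The study mapped which testicular RNAs IGF2BP3 touches. Testes of wild type C57BL/6 mice, 8 weeks old, were dissociated and crosslinked with UV light, and their lysate was digested with RNase and precipitated with an IGF2BP3 antibody. The size-matched input (SMInput) is RNA of the same lysate sequenced without an antibody, and it measures how much of a transcript was there to be precipitated. Each of 2 replicates had 1 IP and 1 SMInput library, 4 samples in all. The series' design text also names an IgG arm and more replicates, which were not analysed here. That text calls the replicates biological, but the labels do not say which animals gave which library. The tissue was whole testis, with germ cells and somatic cells together, so fewer cells of a type and less RNA per cell cannot be told apart. The usable reads worked out from the listed values were 5,133,438 in the IP and 8,706,391 in the SMInput of replicate 1. In replicate 2 they were 4,637,612 and 16,696,122. Each cluster carries 1 log2(fold change) of IP over SMInput and 1 −log10(P value) per replicate. Clusters and genes are not replicates, and no test over samples was made with 2 replicates, so every interval given below covers counting error only.

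Interior clusters were enriched more often than clusters at large. Clusters were called significant when neither their log2(fold change) nor their −log10(P value) was below 2. By this rule 5,433 interior clusters passed in replicate 1, or 21.2% (95% Wilson interval 20.7 to 21.7%), beside 4.92% of all clusters. In replicate 2, 7,816 passed, or 37.2% (36.5 to 37.8%), beside 13.2% of all clusters. The interior thus held 32.8% of all significant clusters in the replicate 1 table and 27.4% in the other. All clusters held fewer reads, with medians of 4 IP and 2 SMInput reads in replicate 1 and 4 and 6 in replicate 2. In the interior the medians were 8 and 4, then 8 and 8. The read numbers assume at least 1 SMInput read per cluster. Clusters with fewer than 8 reads of both libraries together in replicate 1, or 5 in replicate 2, then cannot pass the rule. The median log2(fold change) of interior clusters was 1.76 in replicate 1 and 2.02 in replicate 2, against 1.50 and 1.53 over all clusters and 0.76 and 0.94 over clusters in coding sequence. Values ran from -1.90 to 7.42 in replicate 1 and from -1.04 to 8.67 in replicate 2. Clusters at or below 0 were few, 769 (3%) in replicate 1 and 234 (1.11%) in replicate 2. With both thresholds at 3, the significant clusters numbered 1,563 and 2,249.

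The stretch just behind the stop codon behaved differently from the interior of the same 3′UTRs. Of the clusters centred within 100 bases after the stop codon, 373 of 2,720 were significant in replicate 1 (13.7%) and 551 of 2,253 in replicate 2 (24.5%). By Fisher's exact test, the odds of being significant were higher in the interior in 2 of 2 replicates, with odds ratios of 1.69 (95% interval 1.51 to 1.89, adjusted p = 3.69e-21) and 1.83 (1.65 to 2.02, adjusted p = 9.28e-34). Here and in the next comparisons the test is Fisher's exact test, two-sided, with Benjamini-Hochberg adjustment over 6 tests. Near the transcript end, in its last 150 bases, 419 of 2,210 clusters (19%) and 689 of 1,898 clusters (36.3%) were significant. The difference from the interior was small in replicate 1 (odds ratio 1.15, 1.03 to 1.28, adjusted p = 0.0171) and did not pass the test in replicate 2 (1.04, 0.941 to 1.14, adjusted p = 0.472), again by the exact test. In replicate 1 it no longer passed at thresholds of 3, within classes of reads or with wider margins. By share of significant clusters, the interior therefore stood apart from the start of the 3′UTR in both replicates. It was not set apart from the end in both.

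Clusters on the other strand of an interior, where the RNA is not the mRNA, were fewer and significant less often. Only 317 clusters of replicate 1 and 164 of replicate 2 were centred opposite an interior, 0.0139 and 0.00719 clusters per kilobase against 1.13 and 0.922 on the strand of the mRNA. Of the opposite-strand clusters, 20 (6.31%) and 38 (23.2%) were significant. The odds of significance were higher on the mRNA strand by the exact test, with odds ratios of 3.99 (2.53 to 6.28, adjusted p = 1.09e-12) in replicate 1 and 1.96 (1.36 to 2.82, adjusted p = 0.000258) in replicate 2. Within classes of reads the ratios were 1.84 in replicate 1 and 1.64 in replicate 2, and at thresholds of 3 they were 2.22 and 2.33. A comparison within genes was added after seeing the data. The ratio there was 5.04 (2.04 to 12.5) in replicate 1, and 1.29 (0.627 to 2.64) in replicate 2, where it did not pass. These values rest on the 33 and 23 genes that had both strands and clusters on each side of the rule. The median log2(fold change) of opposite-strand clusters, 1.76 and 2.08, was not below that of the interior, 1.76 and 2.02. Pooled over genes, the strands thus differed in the share that passed and not in the middle value. Opposite-strand clusters held fewer reads, with medians of 4 IP and 2 SMInput reads in replicate 1 and 5 and 5 in replicate 2. In the interior the medians were 8 and 4, then 8 and 8. The part of read number in the shares was not tested beyond the read classes above.

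The shares on either side of the limits of the rule were as follows. In the 50 bases just inside the stop codon limit, 20.3% of the replicate 1 clusters and 31.7% of the replicate 2 clusters were significant, and in the 50 bases just outside 15.8% and 27.3%. At the transcript end limit the shares were 19.8% and 34.6% inside, and 21.8% and 36.8% outside. Interiors of 3′UTRs of 300 to 399 bases held 22.5% and 32.1% significant clusters, and whole 3′UTRs of 200 to 299 bases 15.4% and 23.7%. All 3′UTRs under 300 bases together had 15.2% and 22.6%.

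Along the interior, the share of significant clusters was highest from 400 to 800 bases after the stop codon, with 24% in replicate 1 and 40.3% in replicate 2. Shares of 20.3% and 32.4% were found between 100 and 200 bases, and of 13.8% and 31.9% beyond 3200 bases. With each interior cut into 10 pieces of equal length and the clusters of all genes pooled, the shares were nearly level. The piece next to the stop codon had 19.8% and 34.4%, the last piece 18.2% and 34.9%, and the pieces between them 21.2 to 22.7% in replicate 1 and 35.6 to 39.6% in replicate 2. Clusters in the longest 3′UTRs, over 8000 bases, were significant least often among the length classes, with 15.2% and 29%. The 3′UTRs of 600 to 1000 bases had the highest share in replicate 1 (24.3%), and those of 1000 to 2000 bases in replicate 2 (38.8%).

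Other features of the gene models went with small to large differences. Interior clusters within 150 bases before the end of another basic transcript of the same gene, where a shorter 3′UTR could stop, were significant in 23.4% of 881 in replicate 1 and 37.8% of 781 in replicate 2, near the shares of the other interior clusters (21.1% and 37.1%). In 3′UTRs spliced from more than 1 exon the shares were 18.7% and 32.6%. Where another basic transcript placed coding sequence or 5′UTR at the same position, they were 11.6% of 320 and 12.8% of 250. These last clusters were thus closer to coding sequence, where 5.34% and 8.06% of clusters were significant, than to the rest of the interior.

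The share of significant clusters differed with the number of reads. The median interior cluster held 8 IP reads and 4 SMInput reads in replicate 1, and 8 and 8 in replicate 2, over median widths of 48 and 51 bases. Significant ones held 16 and 4 reads in replicate 1, and 12 and 7 in replicate 2. At these library totals, and with at least 1 SMInput read, fewer than 8 reads of both libraries together cannot pass in replicate 1. In replicate 2 fewer than 5 cannot, so shares at the lowest reads follow from the rule. Above 10 and up to 20 reads the shares were 31.1% and 44.8%, the highest of replicate 2, and above 100 reads 42.9% and 41.4%. The SMInput number worked out was 1 for 15.1% and 8.87% of the significant clusters, whose fold changes are the least precise. A number of 1 may also stand for an empty input, which was not tested.

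Genes differed widely in how many enriched clusters their interior carried. Of 6,982 genes with interior clusters in replicate 1, 2,469 (35.4%) had at least 1 significant cluster, and of 6,404 such genes in replicate 2, 3,373 (52.7%) had. A single significant cluster was the most common case, in 52.5% and 48.5% of them. At the other extreme, 35 and 40 genes had 10 or more. The 100 genes with the most carried 17.4% and 12.7% of all significant interior clusters. The maximum was 18 in each replicate, in Zfp91 for replicate 1 and in Sfmbt2 for replicate 2.

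Interior clusters called separately in the replicates often lay on the same bases. Of all interior clusters, 42.3% of replicate 1 and 49.9% of replicate 2 shared at least 1 base with an interior cluster of the other replicate. Across 11,918 overlapping pairs, the log2(fold change) gave 0.613 as Pearson's r and 0.588 as Spearman's rho. These pairs share libraries and are not independent, so the values are descriptions. The correlation was 0.277 among 1,883 pairs with up to 10 reads in replicate 1 and 0.885 among 865 pairs with over 100. Of the significant interior clusters, 2,410 in replicate 1 (44.4%) overlapped a significant interior cluster of replicate 2, beside 33% of all significant clusters anywhere. In the other direction 2,340 (29.9%) did, beside 18.5%.

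Joined where they touched, the significant clusters found in both replicates made 1,858 shared interior sites in 1,185 genes. These are 15.3% of the 7,743 genes with an interior cluster in either replicate and 63.3% of the 1,873 genes significant in both, the rest being significant at different places. With both thresholds at 3, 424 sites were left. The median site was 90 bases wide, from 15 to 528, and 76.5% of the sites were made of 1 cluster from each replicate. Sites lay a median of 650 bases after the stop codon (quartiles 336 and 1300) and 909 before the transcript end, and the farthest lay 7,709 bases after the stop codon. Per length of interior, in the 5,643 genes with clusters in both replicates, sites were densest next to the stop codon side. There were 37.1 sites per 100 kilobases between 100 and 200 bases, 26.8 between 400 and 800, 10.4 between 1600 and 3200 and 4.34 beyond 3200. Unlike the share of significant clusters, this density also moves with how often any cluster was called.

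The smaller of the 2 fold changes of a site, each taken from the highest cluster of its replicate, had a median of 2.55 on the log2 scale (quartiles 2.24 and 3.01). It was at least 3 at 468 sites, at least 4 at 83 and at least 5 at 12. Most genes with a site had only 1 (777 genes, 65.6%), while 266 had 2, 112 had 3 or 4, and 30 had 5 or more. Neighbouring sites of a gene were a median of 289 bases apart between centres (quartiles 169 and 546), and 227 of 673 neighbouring pairs (33.7%) were within 200 bases. Genes with a site had a median 3′UTR of 1660 bases, against 1510 for genes with any interior cluster and 1220 for all genes with an interior.

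The highest shared site lay in Ube2b, which encodes a ubiquitin-conjugating enzyme needed for male fertility in mice. It spans chr11:51985874-51986048 (mm10) on the minus strand, 721 bases after the stop codon. Its highest clusters held 120 IP reads and 2 SMInput reads in replicate 1, and 97 and 5 in replicate 2, for log2(fold change) values of 6.67 and 6.13. In Samd4b, of the Smaug family of RNA-binding translational repressors, the site at chr7:28399949-28400128 reached 6.10 in both replicates, with 243 IP reads and 6 SMInput reads in replicate 1. Its replicate 2 cluster was at the listed maximum −log10(P value) of 400, so reads could not be worked out. Kctd7, of the BTB-domain family named after potassium channel tetramerization, had its site at chr5:130154929-130155051, far down the 3′UTR at 2383 bases after the stop codon. It held 117 IP and 3 SMInput reads, then 90 and 5, for values of 6.05 and 6.02. BC005537, known by its cDNA name, had 101 IP reads and 1 SMInput read in replicate 1 and 72 and 5 in replicate 2 at chr13:24812862-24813037, for values of 7.42 and 5.70. All 4 of these genes thus reached at least 5.70 in both replicates, and the highest value of BC005537 rests on a single SMInput read.

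The other sites of the top 8 were in a homeobox gene, an autophagy gene, a histone deacetylase gene and a G protein gene. In Hoxa4, at chr6:52190033-52190119, 83 IP reads stood against 3 SMInput reads in replicate 1 and 78 against 6 in replicate 2, both 5.55 on the log2 scale. Gabarap, an Atg8-family protein of autophagosomes, has a 3′UTR of 427 bases, and its site at chr11:69994636-69994785 joined 7 clusters of replicate 1 and 6 of replicate 2. All of them were significant, the highest at 5.52 and 5.82, and 2 significant clusters from outside the interior touched this site in each replicate. The interior here is therefore a piece of a longer bound stretch. Hdac11, which encodes the class IV histone deacetylase, had a joined site of only 15 bases at chr6:91174492-91174506, 193 bases before the transcript end. It held 88 IP and 4 SMInput reads in replicate 1 (5.22) and 113 and 1 in replicate 2 (8.67), the highest value of any interior cluster in that table. Another 3 significant Hdac11 clusters in each replicate were centred in the last 150 bases and so lie outside the interior. Gng5, a G protein gamma subunit, had a single interior cluster in each replicate, at chr3:146505333-146505382. It held 109 IP and 5 SMInput reads in replicate 1 (5.21), and 121 and 8 in replicate 2 (5.77). Outside the interior, Gng5 had 2 and 1 significant clusters just after the stop codon, and 4 in coding sequence in each replicate.

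The 30 bases at the middle of the overlap of the highest clusters are shown for these 8 sites, to let their letters be compared. For Samd4b and Gabarap, whose highest clusters did not overlap, the middle of the replicate 1 cluster is shown. Capitals mark every match to any of the 10 fixed motifs, which are spelled out with their counts where the motif search is described. All are 3′UTR sequence of GRCm38 (mm10), read 5′ to 3′ on the strand of the mRNA. On the minus strand these are chr11:51985933-51985962 for Ube2b, chr7:28400074-28400103 for Samd4b and chr6:52190059-52190088 for Hoxa4. On the plus strand they are chr5:130154986-130155015 for Kctd7, chr13:24812961-24812990 for BC005537, chr11:69994648-69994677 for Gabarap, chr6:91174480-91174509 for Hdac11 and chr3:146505344-146505373 for Gng5.
Ube2b: ccacgagcagagctgacttcctctgctgtg
Samd4b: ccagtgccgggctgggcggggtgtcaggtg
Kctd7: tcttaaatggAATAAAagaattCATAgcct
BC005537: ctgcacGGACtgtgtgaaagaaggtgCATT
Hoxa4: aagcactggcCATCgactacctttgagtca
Gabarap: tgaggctgtctctccagtccctctcagcag
Hdac11: cagcacCACACccctctgtcatggcctctt
Gng5: ccacttttcatgaaccagtgaatattcaag
No motif was common to these windows, and those of Ube2b, Samd4b, Gabarap and Gng5 held none of the 10.

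Other genes stood out by the number of their sites. They were chosen for having the most shared sites, so a high share of significant clusters follows from that choice. Of all interior clusters, 21.2% in replicate 1 and 37.2% in replicate 2 were significant. Gmfb, a member of the actin depolymerizing factor family, carried 9 sites over 3603 bases, with 16 of 18 and 14 of 18 interior clusters significant and none of its coding-sequence clusters.

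Zfp91, a zinc finger protein with ubiquitin ligase activity, and Fyttd1, an adaptor for mRNA export, carried 8 sites each. The widest site of Zfp91 ran over 277 bases at chr19:12769326-12769602 and joined 7 clusters of replicate 1 with 3 of replicate 2, at a −log10(P value) of up to 39.6 and 47.2. In Fyttd1, 13 of 18 and 11 of 13 interior clusters were significant, and 1 of its sites held a replicate 2 cluster at the maximum −log10(P value) of 400. Sfmbt2 and Grb10, both imprinted genes, carried 7 sites each. Sfmbt2 is a Polycomb-group protein, and all 18 of its interior clusters in replicate 2 were significant, against 12 of 17 in replicate 1. Its highest site, at chr2:10592003-10592139, had 51 IP and 5 SMInput reads in replicate 1 (4.11) and 59 and 7 in replicate 2 (4.92). Grb10, an adaptor that dampens insulin and IGF receptor signalling, differed from the others in its depth. At no site of Grb10 did the highest cluster of either replicate hold more than 22 IP reads. Of its interior clusters, 8 of 9 and 11 of 13 were significant, as follows from its choice by number of sites. Its sites at chr11:11931571-11931598 (4.08 and 4.02) and chr11:11931275-11931340 (4.01 and 3.96) were its highest by the smaller value. The first held 10 IP and 1 SMInput reads in replicate 1, and 9 and 2 in replicate 2. The second held 19 and 2, then 13 and 3. With so few reads these values are imprecise.

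Windows of 30 bases from sites of these genes, chosen and marked as above, are shown for comparison. Those of Grb10 (minus strand) lie at chr11:11931570-11931599 and chr11:11931303-11931332. That of Fyttd1 lies at chr16:32907703-32907732 on the plus strand and that of Sfmbt2 at chr2:10592043-10592072 on the plus strand.
Grb10 11931570: agcaggctcccactgatcttccccttacag
Grb10 11931303: tttcgtacgtagctggtttgacgtagaact
Fyttd1 32907703: ctcttgagtgctgacctgtTGTATATAcac
Sfmbt2 10592043: gggccttactggtttacttgtggttttcca
The Fyttd1 window, from a site of 3.31 in both replicates, holds a match to TGTANATA, the core of the sites that Pumilio proteins bind. The Grb10 and Sfmbt2 windows shown hold none of the 10, while 3 of all 7 windows of Grb10 and 4 of all 7 of Sfmbt2 hold at least 1.

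Among chromatin regulators, 13 of the 36 listed genes with interior clusters had a shared site (36.1%), beside 15.3% of all genes with interior clusters, and 7 had no significant interior cluster in either replicate. Of their interior clusters, 48 of 171 (28.1%) and 71 of 157 (45.2%) were significant, beside 21.2% and 37.2% of all interior clusters. The median log2(fold change) of these clusters was 1.68 and 2.02, not above the 1.76 and 2.02 of all interior clusters, and the differences between lists were not tested. Beside Hdac11, Kmt2e, a SET-domain protein, had a site at chr5:23503425-23503496 (3.81 and 3.52), with 33 IP and 4 SMInput reads in replicate 1 and 35 and 11 in replicate 2. Kat7, a histone acetyltransferase of the MYST family, had 5 of the 20 shared sites of the list. Of its clusters, 10 of 15 and 11 of 13 were significant, and it was chosen after its values were seen. Without Kat7, also worked out after the data were seen, 24.4% and 41.7% of the list's interior clusters were significant.

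Of the genes for RNA-binding and translation regulators, 13 of 30 had a shared site (43.3%), beside 15.3% of all genes, and 5 of the 30 were significant in neither replicate. They also held more interior clusters per gene, 7.23 and 6.6 against 3.31 and 2.72 over all genes, which leaves more places for a site. All 6 lists held more clusters per gene than all genes did. Significant clusters made up 25.3% of 217 in replicate 1, above the 21.2% of all genes, and 32.8% of 198 in replicate 2, below the 37.2% of all genes. Dazl, the germ cell protein that promotes translation of stored mRNAs, had a site of 443 bases at chr17:50279737-50280179, made of 6 clusters of replicate 1 and 7 of replicate 2 and reaching 3.90 and 3.73. It also had 1 significant cluster near the transcript end in each replicate and 3 and 2 in coding sequence. Without Dazl, as worked out after the data were seen, 22.7% and 31.4% of the list's interior clusters were significant. Ybx1, a Y-box protein, reached 3.22 and 3.16 at chr4:119278165-119278242, and Eif4ebp2, which blocks the cap-binding factor eIF4E, 3.20 and 2.91 at chr10:61432797-61432852. The mRNA of IGF2BP3 itself had 1 of 5 and 3 of 6 interior clusters significant and no shared site.

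The m6A list had the highest share of significant clusters among the 6 gene lists, 28 of 61 (45.9%) and 29 of 54 (53.7%). A single gene weighed heavily in it. Alkbh5, the m6A demethylase whose loss impairs spermatogenesis, gave 14 of the 28 in replicate 1 and 13 of the 29 in replicate 2, and 4 of the 8 shared sites of the list. Without it, as worked out after the data were seen, 14 of 44 clusters (31.8%) and 16 of 38 (42.1%) were significant, beside 21.2% and 37.2% of all interior clusters, and the list was no longer the highest in either replicate. Its highest site, chr11:60557628-60557839, had 31 IP and 4 SMInput reads in replicate 1 (3.72) and 30 and 8 in replicate 2 (3.75). Of the 12 listed genes with interior clusters, 4 had a shared site (33.3%), beside 15.3% of all genes. The others included Ythdc2, a helicase needed for meiosis (2.88 and 2.72), and Ythdf2, a reader that promotes mRNA decay (2.76 and 2.43, at chr4:132186097-132186151). The 4th was Ythdc1, the nuclear reader, whose highest interior clusters reached 2.35 and 2.01, and which was named after its values were seen.

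Among genes of ubiquitin conjugation and ligation, 8 of 29 had a shared site (27.6%), and 33.6% of 125 and 42.3% of 111 interior clusters were significant, beside 15.3% of all genes and 21.2% and 37.2% of all interior clusters. Behind Ube2b came the cullin scaffolds Cul4a (2.66 and 2.72 at chr8:13147344-13147410) and Cul3 (2.57 and 2.70 at chr1:80265932-80265960). By this ranking, the list had values above 6 in its first gene and below 3 from its next gene on. Without Ube2b, as worked out after the data were seen, 29.3% and 38.2% of the list's interior clusters were significant. Mdm2, the ligase that targets p53, had 3 shared sites and single clusters up to 4.01 and 3.23, and was likewise named after its values were seen. Of the kinase and phosphatase genes, 6 of 21 had a shared site (28.6%), with 23.9% of 117 and 45.5% of 99 interior clusters significant, to be read beside the same shares of all. The highest were Map3k1, a kinase that activates MAP kinase cascades (3.22 and 3.66 at chr13:111748188-111748256), Stk35 (2.39 and 2.66 at chr2:129828078-129828224) and Ppp3r2, the calcineurin B subunit of testis (3.08 and 2.38 at chr4:49680464-49680532).

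The mRNAs often cited as targets of IGF2BP proteins in other cells had the lowest shares of significant interior clusters among the 6 gene lists. Of 18 such genes, 17 have an interior and 11 had interior clusters, and none of the 11 had a shared site. Btrc is counted among the ubiquitin genes as well. Significant were 5 of 59 clusters in replicate 1 (8.47%) and 14 of 59 in replicate 2 (23.7%), below the 21.2% and 37.2% of all genes. Actb, whose 3′UTR gave this protein family its zipcode name, had 3 and 4 interior clusters that reached 1.21 and 1.56. In Igf2, whose mRNA named the family, 0 of 4 were significant in each replicate. Ccnd1 had 1 of 7 and 4 of 7. No interior cluster was listed for Myc, Cd44, Hmga2, Ptma, Mapk4 and Lif. Actb, Igf2 and Ccnd1, like the others of this paragraph, were named after their values were seen.

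Another 5 genes were named in the plan, with earlier results of these data known. Dot1l, a histone H3 methyltransferase, had 1 shared interior site, at chr10:80794730-80794849 and 1275 bases after the stop codon. It held 34 IP and 9 SMInput reads in replicate 1 (2.68) and 24 and 18 in replicate 2 (2.26). Most other significant Dot1l clusters of the 3′UTR sat just after the stop codon, 5 in replicate 1 and 3 in replicate 2. Hdac11 was the reverse, with its enrichment toward the transcript end. Smarca2, an ATPase of SWI/SNF chromatin remodelling complexes, had a pair of sites 375 and 532 bases after the stop codon, at chr19:26777698-26777793 (3.47 and 3.14) and chr19:26777832-26777972 (2.70 and 3.81). The upstream site held 85 IP and 13 SMInput reads in replicate 1 and 76 and 31 in replicate 2. Ybx2, a germ cell Y-box protein that represses translation, had all of its interior clusters significant, 4 of 4 and 2 of 2, in a 3′UTR of 414 bases. They joined to 1 site at chr11:69941292-69941398 (2.75 and 2.74). Chd5, a chromatin remodeller of spermatids, had no shared interior site. In replicate 1, 0 of its 6 interior clusters were significant, the highest being 1.35, and in replicate 2, 2 of 5 were, at up to 2.48.

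Windows are shown for Dot1l, Smarca2 and Ybx2 as genes named in the plan, and for Alkbh5 and Dazl as the highest sites of their gene lists. The highest Dazl clusters did not overlap, so the middle of the replicate 1 cluster is shown. The windows lie on the plus strand at chr10:80794771-80794800 (Dot1l), chr19:26777725-26777754 and chr19:26777866-26777895 (Smarca2), chr11:69941324-69941353 (Ybx2) and chr11:60557763-60557792 (Alkbh5), and on the minus strand at chr17:50279890-50279919 (Dazl), all in 3′UTRs of GRCm38 (mm10), with capitals as above.
Dot1l: caccccgcgatggtgctcatgttcggcagg
Smarca2 26777725: tttggtagcagtttgatgtgctgggttctg
Smarca2 26777866: tttgtttcagtattgttggttttctctttt
Ybx2: agggccaaagcaccagcctttggcTTTTTT
Alkbh5: cactgCATCcagccttttctgtctgtctta
Dazl: taaaatgccttgttgatctatcttgtatta
Both Smarca2 windows are rich in T and hold no motif of the list, and that of Dot1l is rich in C and G.

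At the other end, interior clusters at or below a log2(fold change) of 0 in both replicates were rare. There were 66 overlapping pairs of them in 52 genes, and only 1 of these genes had a shared site elsewhere in its interior. The widest lay in Sfr1, a protein of homologous recombination (-0.49 in replicate 1 and 0.00 in replicate 2), in Leng8 (-0.52 and -0.48) and in Hnrnpa2b1, an RNA-binding protein of heterogeneous nuclear ribonucleoproteins (-0.13 and -0.03). Lonrf3, a RING finger protein (-0.24 and -0.03), and Marcks, a substrate of protein kinase C (-0.13 and -0.14), came next. All 5 lay between 173 and 275 bases after the stop codon. For Leng8, 0 of 5 interior clusters were significant in each replicate.

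Markers of testicular cell types gave few interior clusters, and most marker clusters lay elsewhere in their genes. Of the spermatogonial markers, 5 of 7 have an interior and all 5 had interior clusters, of which 5 of 19 were significant in replicate 1 and 12 of 16 in replicate 2. All interior clusters, for comparison with these and the next counts, were significant in 21.2% and 37.2%. Kit, the receptor of differentiating spermatogonia, and Dmrt1, a transcription factor of spermatogonia and Sertoli cells, each had 1 shared site. Spermatocyte markers had 114 and 107 clusters over the whole genes, led by the synaptonemal complex gene Sycp1 with 39 and 40, but 0 of 15 and 0 of 11 interior clusters were significant. Spermatid markers have short 3′UTRs. Only 1 of the 7 has an interior, with 1 cluster in each replicate, and neither was significant. Of the somatic markers, Sertoli cell genes had 1 of 17 and 0 of 18 interior clusters significant and Leydig cell genes 1 of 2 and 0 of 2. Peritubular genes had none in replicate 1 and 0 of 2 in replicate 2, macrophage genes 1 of 6 and 1 of 2, and endothelial genes 0 of 2 in replicate 1 and no interior cluster in replicate 2. Taken over whole genes, all 5 Sertoli, 6 Leydig and 2 macrophage markers found in the annotation had clusters in both replicates. Of the peritubular markers 4 and 3 of 4 had them, and of the endothelial markers 2 and 1 of 3. The part of cell composition in the results above was not tested.

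Motifs were counted in windows of 100 spliced bases around each of the 1,858 shared sites, on the strand of the mRNA. They were compared with 56 windows around interior clusters at or below 0 in both replicates and read beside all 220,360 such windows that tile the interiors. GGAC lies inside TGGAC, and ACACA and CACAC overlap, so these counts are not independent. CATT was in 43.2% of site windows, 30.4% of the background and 39.7% of all windows. CATA was in 24.7%, 12.5% and 28.7%, and CATC in 30.5%, 17.9% and 29%. ACACA was in 12%, 10.7% and 13.2%, and CACAC in 11.6%, 7.14% and 10.6%. GGAC, the core of many m6A sites, was in 23.3%, 23.2% and 23.3%, and TGGAC in 8.77%, 12.5% and 7.86%. By two-sided Fisher's exact tests with Benjamini-Hochberg adjustment over the 10 motifs, 0 passed, and 1 (CATA, odds ratio 2.29, 1.03 to 5.09) had an unadjusted p under 0.05. The lowest adjusted p was 0.188, shared by CATA, CATT and CATC. With 56 background windows the intervals are wide. In windows of 50 bases CATA did pass, at 13.6% of site windows and 0% of the background (odds ratio 17.8, 1.09 to 288, adjusted p = 0.0048 by Fisher's exact test). That call rests on a background count of 0, and CATA was in 15.5% of all 50-base windows, more than at the sites.

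Among the elements bound by other proteins, TTTTT was in 28.4% of site windows, 33.9% of the background and 21.8% of all windows, and TGTANATA in 1.45%, 0% and 1.93%. AATAAA, the polyadenylation signal, was in 2.91%, 1.79% and 6.34%. What passed changed with the window and with the background, whose kind and size changed together. Against 2,983 windows centred 200 bases up- and downstream of the same sites, AATAAA alone passed, being rarer at the sites than in these neighbours (2.91% against 6.1%, odds ratio 0.461, 0.338 to 0.628, adjusted p = 3.03e-06 by Fisher's exact test). CATT, at 43.2% and 42.3%, did not pass there. Against 928 windows of interior clusters at or below 1 in both replicates, a background chosen after seeing the data, 5 of the 10 motifs passed. By the exact test, CATT (odds ratio 1.59, adjusted p = 3.57e-07), CATA (1.44, 0.000612), ACACA (1.81, 0.000101) and CACAC (1.68, 0.000612) were more frequent at sites, and TTTTT (0.682, 3.88e-05) was less frequent. The sites thus held CATT about as often as their own neighbourhood, and more often than weakly enriched clusters of other places.

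Base composition differed between site windows and their surroundings. Site windows were 22.5% A, 23.6% C, 21% G and 32.9% T, while the windows 200 bases away were 26.1% A, 22% C, 21% G and 31% T, and all interiors 27.1% A, 21.4% C, 21.7% G and 29.8% T. The 928 windows at or below 1 in both replicates had 20.4% A, 24% C, 22.4% G and 33.2% T, and the 56 at or below 0 had 21.1% A, 24.7% C, 21.4% G and 32.8% T. The low share of A was thus not particular to enriched sites. The median GC content was 45% at sites and 43% beside them. All 256 sequences of 4 bases on the mRNA strand were ranked by sites over neighbouring windows, after the data were seen and with no test. Several pyrimidine-rich ones were more frequent at sites than in neighbouring windows. TTCT was in 66.3% of site windows, 54.5% of neighbouring windows, 52% of all windows and 58.6% of the windows at or below 1 in both replicates. TCTG was in 60.8%, 47.5%, 48.5% and 52.3%, and it overlaps TTCT. The highest ranks were held by TCCG, in 10.4%, 7.14%, 6.42% and 12.3%, and CTCG, in 9.96%, 7.71%, 7.65% and 10.9%. Both were thus rarer at sites than in the windows at or below 1, as was the pyrimidine-rich CCCT, in 43.3%, 37.2%, 35.6% and 49.9%. AAAG was less frequent at sites than in the other windows, in 30.5%, 43.5%, 45.4% and 31.6%. AAAA, in 29.7%, 40.8%, 41.3% and 25.6%, was less frequent at sites than in neighbouring and all windows. It was more frequent there than in the windows at or below 1. The sites were thus poorer in A and richer in T and C than the sequence around them, as weakly enriched clusters also were beside all interiors.

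Over all interior clusters, the share of significant ones was highest at a GC content of 40 to 45% in the surrounding 100 bases, with 23.9% in replicate 1 and 41.1% in replicate 2. The share was lower at both ends, 17.3% and 31.7% up to 30% GC and 15.5% and 26.7% above 60% GC. Clusters with at least 50 of 100 bases in annotated repeats were significant less often, in 14.6% of 2,173 and 31.6% of 1,985, beside 21.8% and 37.7% of the others. At shared sites 13.7% of the bases were in repeats, close to the 13.9% in the windows 200 bases away and below the 18.8% of all interiors. Interior windows at or below 0 in both replicates held 25.9% repeat bases.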

How the data were processed

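The authors trimmed reads with cutadapt, removed ribosomal RNA with Bowtie2, aligned the rest to mm10 with STAR, collapsed duplicates by molecular identifiers and called clusters with Clipper, separately for each replicate of IGF2BP3 eCLIP-seq of testis. For each cluster the authors deposited the −log10 of a P value that sets IP reads against SMInput reads, listed from 0 to 400. The deposited log2 values are the authors' fold changes of IP over SMInput, each scaled to its library. These values chose no member and were used to describe and count clusters, significant meaning at least 2 in both.

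One transcript per protein-coding gene came from the basic set of GENCODE release M21: the longest coding sequence, then the longest transcript, then the lowest identifier. Library totals and reads per cluster were worked out from the listed values, and a single pair of whole numbers returned both values, within 1e-04 of the −log10(P value), for 98.9% (replicate 1) and 99.4% (replicate 2) of clusters listed between 0 and 400. Only whole numbers of at least 1 were sought, so an SMInput number of 1 may stand for an empty input. Clusters listed at 0 or 400 have no reads here. Shared sites joined touching or overlapping clusters that were significant in both replicates with at least 1 base in common. Shares have 95% Wilson intervals. Fisher's exact test, two-sided and with Benjamini-Hochberg adjustment, compared counts. Repeats and sequences came from the RefSeq genome of GRCm38. Of 15404 stop codons read from it, 0 were other than TAA, TAG or TGA.

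The named genes were the 8 sites with the highest smaller log2(fold change) and −log10(P value) of at least 10 in both replicates, the 6 genes with most shared sites, up to 3 genes of each list with the highest sites, the 5 genes with the widest clusters at or below 0 in both replicates (width was used because no reads were recovered for them), and Dot1l, Hdac11, Chd5, Smarca2 and Ybx2. Some items that this rule takes are not reported here. Lists covered chromatin regulators, RNA-binding and translation regulators, m6A factors, ubiquitin conjugation and ligation, kinases and phosphatases, mRNAs cited as IGF2BP targets, and markers of 8 testicular cell types. Members and lists were chosen with earlier results of these data known. Alternatives changed the thresholds, the margins, the overlap, the clusters counted per gene, the read classes, other transcripts at the same place, the motif windows and their background, and left out each replicate. The calculations were tested on simulated data and run with Python 3.11.15, numpy 2.4.6, pandas 2.3.3, scipy 1.17.1, pysam 0.24.0 and samtools 1.23.1.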

Additional observations from a re-analysis of the deposited data

How the results depend on the processing

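No paired analysis was possible because no test here compares groups of samples. Of 32 alternatives of the 6 tests between classes of clusters, 27 kept the direction and the side of the threshold. Of the others, 3 concerned interior against transcript end in replicate 1, where the odds ratio was 1.01 at thresholds of 3, 1.12 over classes of reads (Mantel-Haenszel) and 1.09 at wider margins, and none passed. Pooled within genes (Mantel-Haenszel), an alternative added after seeing the data, the ratio to the transcript end was 0.962 in replicate 2, and that to the opposite strand 1.29 in replicate 2, which did not pass. The cause was not tested. Thresholds of 3 left 1,563 and 2,249 significant interior clusters and 424 shared sites. Without the requirement of the other replicate, 4,805 to 7,189 sites were counted. The motifs that passed were 1 in windows of 50 bases (CATA, 13.6% against 0%, adjusted p = 0.0048 by Fisher's exact test), 1 against neighbouring windows and 5 against the background at or below 1 that was chosen after seeing the data. Of 40 alternatives of single motifs, 13 odds ratios crossed 1. In windows of 50 bases these were TGGAC (1.12), AATAAA (0.538) and TGTANATA (0.642). The last is below 1 only by the correction for a background count of 0, as its share at sites was the higher one (0.538% against 0%). Against neighbouring windows they were CATA (0.881), ACACA (0.899), TGGAC (1.18), TTTTT (1.1), AATAAA (0.461) and TGTANATA (0.614). With 1 window per gene it was GGAC (0.976), and against the added background TGGAC (1.08), AATAAA (0.928) and TGTANATA (0.841). Without Alkbh5, an alternative added after seeing the data, the m6A list fell from rank 1 by share of significant clusters to rank 2 in replicate 1 and rank 4 in replicate 2. With at least 1 SMInput read, the rule cannot call clusters with fewer than 8 reads in replicate 1 or 5 in replicate 2. The 56 background windows limit the motif test.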
